A study of Rhizophagus irregularis DAOM 181602=DAOM 197198 with 30 samples.

Results

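Aldo/keto reductases are a family of soluble enzymes that use NADPH to reduce aldehydes and ketones to alcohols. In fungi and plants they act in sugar alcohol metabolism and in the removal of reactive carbonyls, and in animals a branch of the family serves as the beta subunit of voltage-gated potassium channels. Transcripts of 3 gene models annotated as aldo/keto reductases, written here as JGI and their protein ID, JGI.22273, JGI.33452 and JGI.62569, were followed in germinating spores of Rhizophagus irregularis, an arbuscular mycorrhizal fungus that lives inside plant roots. The models were chosen by protein ID because, at 14 d, they were lower with the synthetic strigolactone GR24 and higher over carrot roots. They are 3 of the 30282 gene models in the tables and 3 of 64 models with an aldo/keto reductase domain.

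All libraries came from strain DAOM197198, and their polyadenylated RNA was sequenced. In the time course, cultures of 80000 spores were germinated for 2 d and then given GR24 at 1e-06 M or acetone, the solvent, diluted 1 in 1000. Strigolactones are signals that roots release, and GR24 is a laboratory analog of them. Libraries with counts numbered 3 for GR24 and 2 for acetone at 1 h, 2 and 3 at 2 d, 2 and 2 at 7 d, and 3 and 3 at 14 d. In a separate set, 60000 spores were laid on cellophane, in 3 libraries over carrot hairy roots (line DC1) and in 2 libraries without roots, and kept there for 14 d. The column headings of the root table name its 2 groups the other way round from the sample titles. The titles were followed, and every root fold change given here reverses its sign if the headings are right. Each library had between 5786080 and 11812317 gene reads, and the labels do not say whether replicates were separate cultures, so p-values measure the spread between these libraries alone.

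The 3 models share 1 domain annotation, IPR001395 (aldo/keto reductase), and 1 orthologous group, KOG1575, which is named for the potassium channel beta subunit. Model JGI.22273 (gm1.22161_g) is 1137 bases long, or 379 codons. Its best hit was an oxidoreductase of the amoeba Acanthamoeba castellanii, beside a listed hit entry of 357 letters. Model JGI.33452 (gm1.33340_g) is 600 bases long, or 200 codons, and its best hit was an aldo/keto reductase of the bacterium Deinococcus aquatilis, beside a listed hit of 277 letters in the fungus Gloeophyllum trabeum. Model JGI.62569 (gw1.25966.1.1) is 378 bases long, or 126 codons, with a best hit in Paenibacillus polymyxa, beside a listed hit entry of 328 letters. Models JGI.33452 and JGI.62569 are thus shorter than JGI.22273, and no genome positions were used here. Whether these short models are separate genes or pieces of a longer one was not tested. Of the 14975, 10998 and 4965 reads of models JGI.22273, JGI.33452 and JGI.62569 over all libraries, 0, 23 and 1 also matched another model.

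Levels are given in RPKM, reads scaled by model length and by the library's gene reads, which allows the models to be compared with each other. Model JGI.22273 was the most abundant of the 3 at 1 h and the least abundant in the root set, and its RPKM spanned 12.2-fold between libraries. Models JGI.33452 and JGI.62569 spanned 8.29-fold and 10.3-fold and were lowest at 1 h. Of the 64 models of the family, JGI.33452, JGI.62569 and JGI.22273 ranked 16, 23 and 24 by mean RPKM over the 25 libraries. Model JGI.62569, the shortest, had between 44 and 464 reads per library and so carries the largest counting error.

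**Figure D1:**
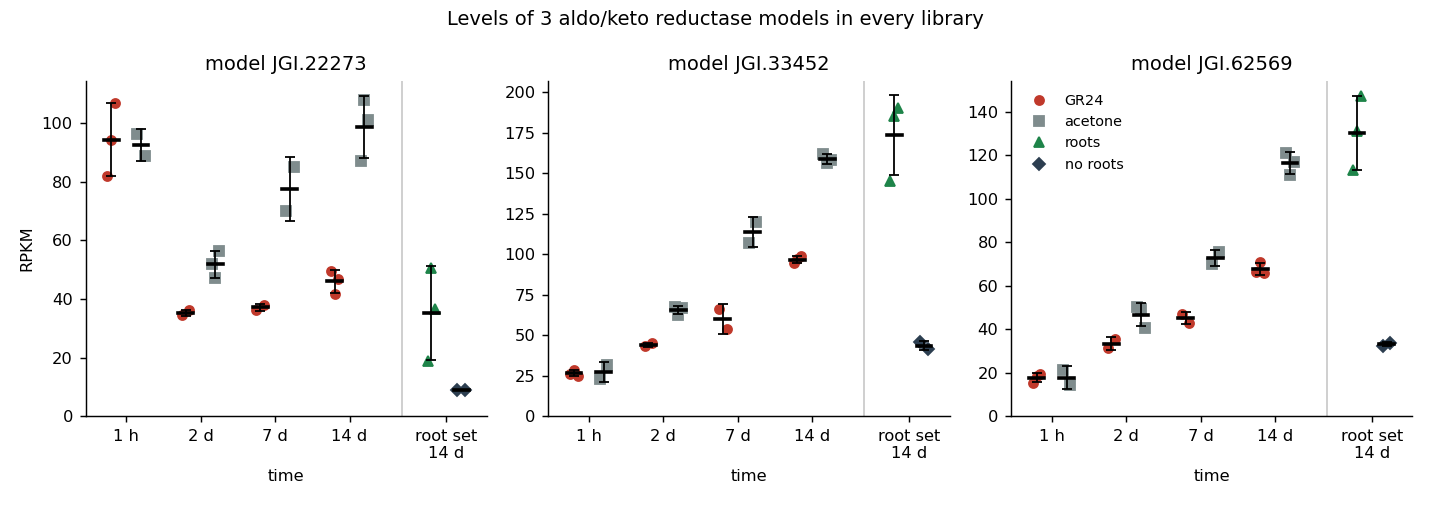
RPKM (vertical axes, linear, from 0) of the 3 models in each library, by group along the horizontal axis with GR24 beside acetone at each time and roots beside no roots. Points are libraries, horizontal lines group means and error bars the SD. Acetone libraries lie above GR24 libraries from 2 d on, and root libraries above those without roots.

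At 1 h, neither direction could be called for any of the 3 models. Model JGI.22273 had 82.0, 94.2 and 107 RPKM with GR24, against 96.3 and 88.7 RPKM with acetone. Model JGI.33452 had 26.2, 28.6 and 24.8 RPKM with GR24, against 23.0 and 31.9 RPKM with acetone. Model JGI.62569 had 15.3, 18.4 and 19.5 RPKM with GR24, against 21.4 and 14.2 RPKM with acetone. The groups overlapped for each model. Of all tested models, 23% had every GR24 value below every acetone value, and 15.9% had every GR24 value above every acetone value. The log2 fold changes were 0.07 ± 0.097 for JGI.22273, 0.00 ± 0.174 for JGI.33452 and 0.02 ± 0.250 for JGI.62569 (SE). In edgeR's quasi-likelihood test 0 of 3 passed (adjusted p = 0.766, 0.997 and 0.975), also 0 at an unadjusted p under 0.05 and 0 in DESeq2, while 10.4% of 13967 models were called in either direction. The 95% intervals ran from -0.13 to 0.27 for JGI.22273, from -0.35 to 0.36 for JGI.33452 and from -0.49 to 0.54 for JGI.62569. Changes within these intervals remain compatible with the data, and the interval was widest for the shortest model.

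At 2 d, models JGI.22273 and JGI.33452 were lower with GR24. Model JGI.22273 had 34.6 and 36.1 RPKM with GR24, against 52.0, 47.1 and 56.4 RPKM with acetone. Model JGI.33452 had 43.2 and 45.0 RPKM with GR24, against 67.4, 62.7 and 67.0 RPKM with acetone. Model JGI.62569 had 31.4 and 35.5 RPKM with GR24, against 50.3, 49.2 and 40.7 RPKM with acetone. Every GR24 value lay below every acetone value for the 3 models, as it did for 21.2% of all tested models. In edgeR's quasi-likelihood test JGI.22273 (log2 fold change -0.50 ± 0.118, adjusted p = 0.0355) and JGI.33452 (-0.53 ± 0.131, adjusted p = 0.0461) passed, and JGI.62569 did not (-0.43 ± 0.178, adjusted p = 0.238). These 2 of 3 models compare with 1.13% of 14704 models called lower. Because the models were chosen for being lower with GR24 at a later time, this share does not show how unusual the calls are. The calls for JGI.22273 and JGI.33452 held in DESeq2 and in the other alternatives that kept every library, but not without certain single libraries. They ended when either GR24 library, or replicate 1 or 3 of acetone, was left out, with log2 fold changes between -0.57 and -0.44 for JGI.22273 and between -0.59 and -0.48 for JGI.33452, and held when replicate 2 of acetone was left out. Because whole cultures were extracted, fewer spores with a transcript and less transcript per spore cannot be told apart.

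At 7 d, all 3 models were lower with GR24, at 0.467, 0.515 and 0.606 times the acetone level for JGI.22273, JGI.33452 and JGI.62569. Model JGI.22273 had 36.4 and 38.1 RPKM with GR24, against 69.9 and 85.2 RPKM with acetone. Model JGI.33452 had 66.5 and 53.6 RPKM with GR24, against 107 and 120 RPKM with acetone. Model JGI.62569 had 47.0 and 43.1 RPKM with GR24, against 70.0 and 75.3 RPKM with acetone. No GR24 value reached the lowest acetone value for any of the 3, which held for 17.9% of all tested models in this direction. In edgeR's quasi-likelihood test the log2 fold changes were -1.10 ± 0.118 for JGI.22273 (adjusted p = 5.06e-10), -0.96 ± 0.129 for JGI.33452 (adjusted p = 1.86e-07) and -0.72 ± 0.172 for JGI.62569 (adjusted p = 0.00311). These 3 of 3 models compare with 2.12% of 14269 models called lower. The models were chosen for being lower at 14 d, so this share does not show how unusual the 3 calls are. Of the other models, 272 of 14077 were called lower at 14 d. Of 12922 tested in all 5 comparisons, 93 were called lower at both 7 d and 14 d. The call for JGI.62569 at 7 d ended without acetone replicate 2 (log2 fold change -0.66, edgeR adjusted p = 0.0895), and no other single library ended a call at 7 d.

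**Figure D2:**
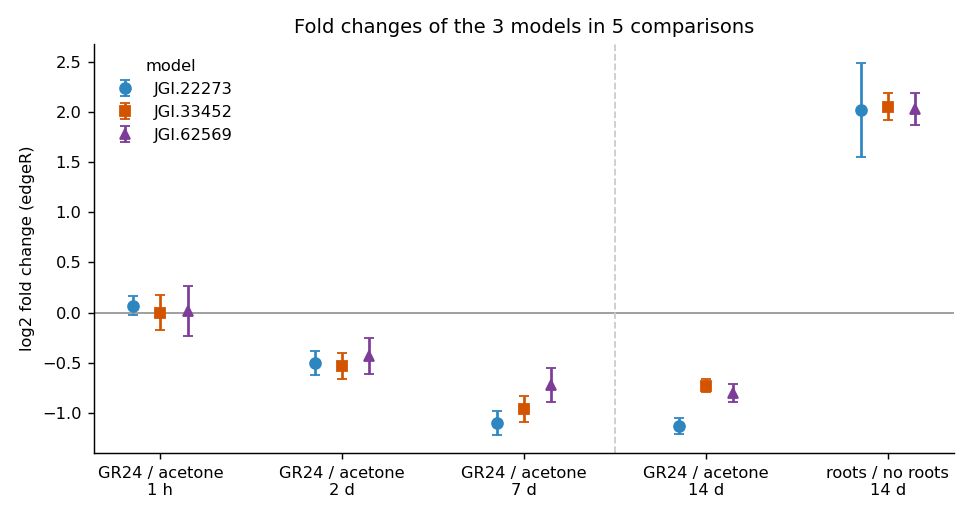
Log2 fold change from edgeR (vertical axis) of the 3 models in the 4 GR24 comparisons and in the root comparison (horizontal axis), with bars for the standard error. Values lie near 0 at 1 h, between -0.53 and -0.43 at 2 d, between -1.10 and -0.72 at 7 d, between -1.13 and -0.73 at 14 d, and between 2.02 and 2.05 with roots. The dashed line sets apart the 14 d comparisons on which the models were chosen.

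The 14 d values chose the models and are given without a test. Model JGI.22273 had 49.6, 41.8 and 46.7 RPKM with GR24, against 87.0, 108 and 101 RPKM with acetone. Model JGI.33452 had 94.7, 96.8 and 98.6 RPKM with GR24, against 162, 156 and 158 RPKM with acetone. Model JGI.62569 had 66.3, 70.9 and 65.8 RPKM with GR24, against 121, 111 and 117 RPKM with acetone. The groups were separate for each model, as for 7.97% of the other tested models in this direction. The log2 fold changes were -1.13 ± 0.084 for JGI.22273, -0.73 ± 0.066 for JGI.33452 and -0.80 ± 0.093 for JGI.62569, and 1.93% of the other tested models were called lower. Leaving out any 1 library moved them to between -1.21 and -1.05 for JGI.22273, between -0.75 and -0.71 for JGI.33452 and between -0.83 and -0.77 for JGI.62569.

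The root set also chose the models. Model JGI.22273 had 18.7, 50.5 and 36.6 RPKM over roots, against 8.90 and 9.09 RPKM without roots. Model JGI.33452 had 145, 185 and 190 RPKM over roots, against 45.7 and 41.6 RPKM without roots. Model JGI.62569 had 113, 131 and 147 RPKM over roots, against 32.5 and 33.7 RPKM without roots. Every root library lay above both libraries without roots for each model, as for 18.6% of the other tested models. The log2 fold changes were 2.02 ± 0.472 for JGI.22273, 2.05 ± 0.134 for JGI.33452 and 2.03 ± 0.158 for JGI.62569, and 7.45% of the other tested models were called higher. These are 4.05-fold, 4.13-fold and 4.09-fold, with the direction taken from the sample titles. The 3 folds are close, but the spread behind them is not: the root libraries of JGI.22273 averaged 35.3 ± 15.9 RPKM (SD, n = 3), with replicate 1 the lowest, and without that replicate its log2 fold change was 2.31 ± 0.183. Without root replicate 2, the highest for JGI.22273, it was 1.68 ± 0.318.

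Set directly against each other at 14 d, the difference between the root and GR24 effects (roots minus GR24) was 3.14 ± 0.489 for JGI.22273, 2.78 ± 0.140 for JGI.33452 and 2.83 ± 0.171 for JGI.62569 on the log2 scale. These differences rest on the sample titles: with the 2 root groups named as the column headings name them, they would be -0.89 ± 0.493 for JGI.22273, -1.31 ± 0.139 for JGI.33452 and -1.23 ± 0.170 for JGI.62569. Both sets of values describe the choice of the models and carry no test. The 2 control groups at 14 d were themselves far apart for JGI.22273, which averaged 98.9 ± 10.8 RPKM in acetone libraries (SD, n = 3) and 9.00 ± 0.133 RPKM in libraries without roots (SD, n = 2). Models JGI.33452 and JGI.62569 averaged 159 ± 3.22 and 116 ± 4.75 RPKM in acetone libraries (SD, n = 3), against 43.7 ± 2.89 and 33.1 ± 0.844 RPKM without roots (SD, n = 2). The spores of these controls grew in liquid medium in the acetone set and on cellophane over gelled medium in the root set, and the authors made the tables separately, so no test was made between them. Over roots, JGI.33452 and JGI.62569 averaged 174 ± 25.0 and 130 ± 17.1 RPKM (SD, n = 3), and their root libraries overlapped the acetone libraries at 14 d, whereas every root library of JGI.22273 lay below the acetone libraries.

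The course over time differed between JGI.22273 and the other two. In acetone cultures JGI.22273 averaged 92.5 ± 5.41 RPKM at 1 h, 51.8 ± 4.61 at 2 d, 77.6 ± 10.8 at 7 d and 98.9 ± 10.8 at 14 d (SD, n = 2, 3, 2 and 3), lowest at 2 d. Model JGI.33452 averaged 27.4 ± 6.34, 65.7 ± 2.60, 114 ± 9.64 and 159 ± 3.22 RPKM at the same times, and JGI.62569 averaged 17.8 ± 5.07, 46.8 ± 5.26, 72.6 ± 3.75 and 116 ± 4.75 RPKM. The means of both were higher at each later time. In edgeR's quasi-likelihood test over the time-course libraries, 2 d against 1 h in acetone gave -0.91 ± 0.112 for JGI.22273 (adjusted p = 1.45e-07), 1.20 ± 0.128 for JGI.33452 (adjusted p = 3.09e-09) and 1.30 ± 0.174 for JGI.62569 (adjusted p = 2.56e-07), where 18.7% of 15712 models were called lower and 20.7% higher. From 2 d to 7 d in acetone all 3 rose in the same test, by 0.65 ± 0.114 (adjusted p = 0.000101), 0.85 ± 0.109 (adjusted p = 5.11e-07) and 0.70 ± 0.145 (adjusted p = 0.000522), where 12.1% of models were called higher. The 14 d against 7 d values, which use libraries that chose the models, were 0.32 ± 0.112, 0.45 ± 0.106 and 0.65 ± 0.139 for JGI.22273, JGI.33452 and JGI.62569.

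In GR24 cultures JGI.22273 was again lower at 2 d than at 1 h, and its level at 7 d lay close to that at 2 d. It averaged 94.4 ± 12.5 RPKM at 1 h, 35.4 ± 1.04 at 2 d, 37.3 ± 1.16 at 7 d and 46.0 ± 3.94 at 14 d (SD, n = 3, 2, 2 and 3). Model JGI.33452 averaged 26.5 ± 1.91, 44.1 ± 1.27, 60.0 ± 9.14 and 96.7 ± 1.97 RPKM, and JGI.62569 averaged 17.7 ± 2.21, 33.5 ± 2.85, 45.1 ± 2.71 and 67.6 ± 2.85 RPKM. These means of JGI.33452 and JGI.62569 were also higher at each later time, and from 2 d on they lay below the acetone means. In edgeR's quasi-likelihood test, 2 d against 1 h in GR24 gave -1.47 ± 0.121 for JGI.22273 (adjusted p = 3.69e-11), 0.68 ± 0.127 for JGI.33452 (adjusted p = 3.85e-05) and 0.87 ± 0.174 for JGI.62569 (adjusted p = 8.08e-05), where 23.8% of models were called lower and 27.1% higher. From 2 d to 7 d in GR24, edgeR gave 0.04 ± 0.136 for JGI.22273 (adjusted p = 0.911), 0.41 ± 0.130 for JGI.33452 (adjusted p = 0.037) and 0.39 ± 0.172 for JGI.62569 (adjusted p = 0.168), so 1 of 3 passed where 4.7% of models were called higher. That call ended without GR24 replicate 1 at 2 d (0.36), GR24 replicate 3 at 2 d (0.49) or GR24 replicate 2 at 7 d (0.25). The interval for JGI.22273 ran from -0.24 to 0.32. The 14 d against 7 d values in GR24, given without a test, were 0.30 ± 0.121, 0.68 ± 0.112 and 0.58 ± 0.147 for JGI.22273, JGI.33452 and JGI.62569.

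Whether the GR24 effect itself differed between times was tested in 1 fit of the time-course libraries, on times that did not choose the models. The effect at 7 d minus that at 1 h was -1.17 ± 0.170 for JGI.22273 (edgeR adjusted p = 2.98e-05), -0.96 ± 0.182 for JGI.33452 (adjusted p = 0.00072) and -0.74 ± 0.250 for JGI.62569 (adjusted p = 0.0735). These 2 of 3 compare with 3.91% of models called lower. The choice of models that were lower with GR24 at a later time favours negative differences from 1 h. Shares of all models called lower therefore do not show how unusual the calls for these differences are. For JGI.62569 the test passed without GR24 replicate 1 at 1 h (-0.85, adjusted p = 0.0461) or acetone replicate 2 at 1 h (-1.07, adjusted p = 0.0275), and its value was -0.47 without acetone replicate 3 at 1 h. The effect at 2 d minus that at 1 h was -0.56 ± 0.164 for JGI.22273 (edgeR adjusted p = 0.0323), -0.52 ± 0.181 for JGI.33452 (adjusted p = 0.0727) and -0.43 ± 0.249 for JGI.62569 (adjusted p = 0.331), where 4.53% of models were called lower. The value for JGI.62569 was -0.77 without acetone replicate 2 and -0.17 without acetone replicate 3 at 1 h. The call for JGI.22273 ended when, at 1 h, replicate 3 of GR24 (-0.46) or either acetone library (-0.62 for replicate 2 and -0.49 for replicate 3) was left out. It also ended when, at 2 d, either GR24 library (-0.50 for replicate 1 and -0.64 for replicate 3) or replicate 3 of acetone (-0.49) was left out. Model JGI.33452 passed without acetone replicate 3 at 1 h (-0.75, edgeR adjusted p = 0.0252).

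The effect at 7 d minus that at 2 d was -0.61 ± 0.178 for JGI.22273, -0.44 ± 0.170 for JGI.33452 and -0.31 ± 0.226 for JGI.62569. In edgeR's quasi-likelihood test 0 of 3 passed (adjusted p = 0.115, 0.235 and 0.581), against 2 of 3 at an unadjusted p under 0.05 and 0 in DESeq2, where 0.719% of all models were called in either direction. The value for JGI.62569 was -0.17 without GR24 replicate 3 at 2 d. The mean GR24 effect over 1 h, 2 d and 7 d was -0.51 ± 0.070 for JGI.22273, -0.49 ± 0.073 for JGI.33452 and -0.38 ± 0.099 for JGI.62569. All 3 passed in edgeR's test of that mean (adjusted p = 7.74e-06, 1.44e-05 and 0.0125), where 3.65% of models were called lower. That share does not show how unusual the 3 calls are, since the models were chosen for being lower with GR24 at a later time. The call for JGI.62569 ended without acetone replicate 2 at 1 h (-0.27, edgeR adjusted p = 0.177).

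Models JGI.33452 and JGI.62569 stood in a similar proportion to each other in most libraries. The RPKM of JGI.62569 over that of JGI.33452 ran from 0.445 to 0.931 over all libraries, and both extremes were acetone libraries at 1 h, where JGI.62569 had few reads. In groups at 14 d the ratio lay between 0.667 and 0.733 with GR24, between 0.712 and 0.743 with acetone, between 0.705 and 0.779 over roots and between 0.712 and 0.811 without roots. The 14 d libraries chose the models, so ratios there are not independent of that choice. The RPKM of JGI.22273 over that of JGI.33452 was 3.13 to 4.31 with GR24 and 2.78 to 4.19 with acetone at 1 h, but 0.129 to 0.272 over roots and 0.195 to 0.218 without roots.

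**Figure D3:**
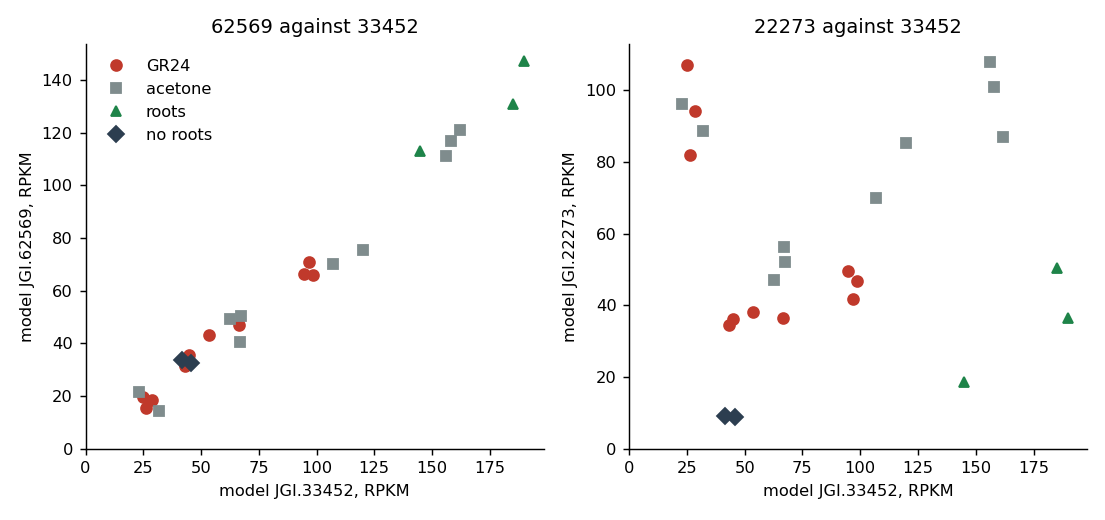
RPKM of JGI.62569 (left) and of JGI.22273 (right) against RPKM of JGI.33452, with 1 point per library for the 25 libraries and linear axes from 0. Points of JGI.62569 follow JGI.33452 closely, while the highest points of JGI.22273 include the 1 h libraries, where JGI.33452 is lowest.

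Across the 25 libraries, JGI.33452 and JGI.62569 were each other's most similar model among 10866 models with a mean of at least 5 CPM (Pearson r = 0.979 of log2 CPM, as a description). The next for JGI.33452 was JGI.28301 (r = 0.948), a 171-base model whose best hit is a pyridoxine 4-dehydrogenase and which has the same domain, followed by JGI.346026 (r = 0.920). For JGI.62569 the next were JGI.6604 (r = 0.933), which carries no description, and JGI.28301 (r = 0.928). Model JGI.22273 was most like JGI.343036 (r = 0.941), which carries no description, then JGI.343366 (r = 0.896), annotated with the V-ATPase subunit H domain, and JGI.346183 (r = 0.896), with a FYVE-type zinc finger. Its r was 0.028 with JGI.33452 and -0.030 with JGI.62569. These libraries share groups and times, so the values describe this set of conditions alone. They also include the libraries that chose the models for a shared pattern. The r values between the chosen models, and their ranks, are therefore not independent of that choice.

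The wider family was listed by annotation. Of 64 models with the domain, 50 had reads, and 47 fell in KOG1575. The models ran from 156 to 1287 bases with a median of 501, so 38 were under 600 bases. The list includes models whose description names another function, such as JGI.12320, the regulatory subunit of glutamate-cysteine ligase in glutathione synthesis. Beside the 3 models, 61 remain, of which 31 to 37 passed the filter on low counts in each of the 5 treatment comparisons and 38 in the fit of all time-course groups.

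The other family members did not share a single direction with GR24. In edgeR's test at 1 h, 8 of 31 were higher, 1 was lower and 22 did not pass (median log2 fold change 0.10, against -0.01 over all tested models), where 7.05% of all tested models were called higher and 3.39% lower. At 2 d, 1 of 34 was higher and 0 were lower in edgeR (2 lower at an unadjusted p under 0.05), with a median of 0.09, where 1.02% of all tested models were called higher and 1.13% lower. At 7 d, 3 of 37 were higher and 5 lower, with a median of -0.03, where 4.31% of all tested models were called higher and 2.12% lower. At 14 d, 1 of 34 was higher and 2 lower, with a median of 0.04, where 1.29% of the tested models other than the 3 were called higher and 1.93% lower. Over roots, 12 of 36 were higher and 0 lower in edgeR (1 lower at an unadjusted p under 0.05), with a median of 0.39, against -0.01 over all tested models, where 7.45% of the tested models other than the 3 were called higher and 7.76% lower.

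**Figure D4:**
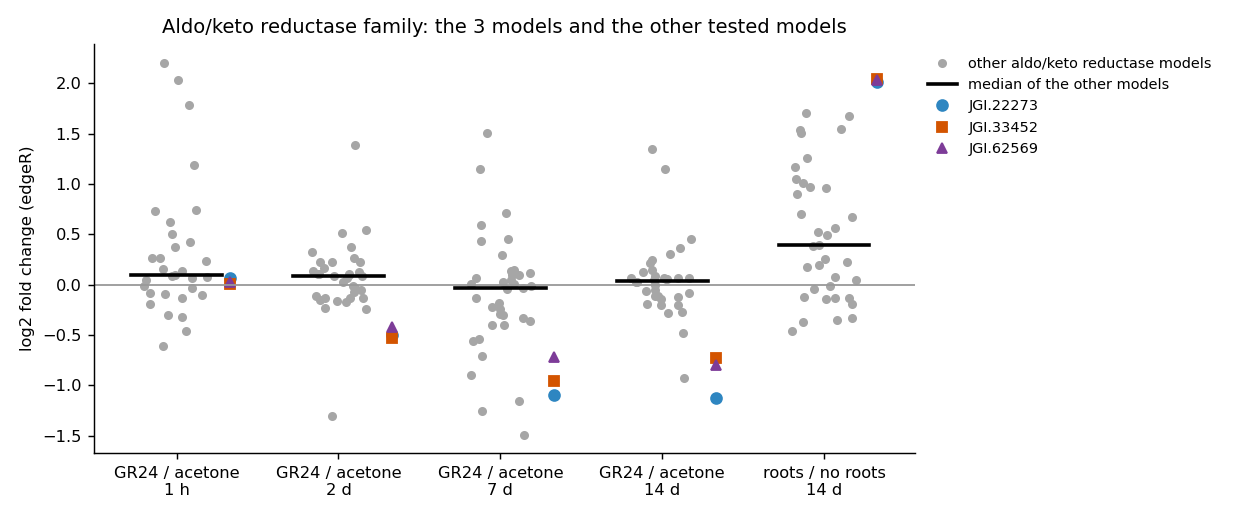
Log2 fold change from edgeR (vertical axis) of each tested aldo/keto reductase model in the 5 comparisons (horizontal axis). Grey points are the other models, black lines their medians (0.10, 0.09, -0.03, 0.04 and 0.39, left to right) and coloured symbols models JGI.22273, JGI.33452 and JGI.62569, which lie near 0 at 1 h and, with directions from the sample titles, above the other models in the root comparison on which they were chosen.

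The family members that moved at 1 h were not the chosen ones. Model JGI.342236 averaged 318 ± 31.4 RPKM with GR24 and 71.0 ± 0.790 RPKM with acetone (SD, n = 3 and 2), a log2 fold change of 2.21 ± 0.103 (edgeR adjusted p = 5.76e-16). Model JGI.180583 averaged 431 ± 27.5 RPKM with GR24 and 108 ± 7.84 RPKM with acetone (log2 fold change 2.04 ± 0.088, edgeR adjusted p = 7.35e-17). Models JGI.77888 and JGI.336053 rose by 1.19 ± 0.070 and 1.79 ± 0.204 on the log2 scale, and JGI.12320 and JGI.11766 by 0.74 ± 0.083 and 0.75 ± 0.100. Every GR24 value lay above every acetone value for each of these models, as for 15.9% of all tested models, and these 6 are among the 8 of 31 called higher.

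Of the 30 other family models tested in all 5 comparisons, 6 were lower with GR24 at 2 d, 7 d and 14 d and higher over roots by sign (JGI.12253, JGI.204628, JGI.234547, JGI.28301, JGI.336141 and JGI.77888), a pattern that 8.68% of the 12922 models tested in all 5 comparisons, the 3 chosen ones left out, also showed. Among the 6, JGI.28301 and JGI.336141 were called lower at both 7 d and 14 d, as were 0.72% of those 12922 models. Model JGI.336141, with a best hit in Leptospira inadai, averaged 42.9 ± 1.26 RPKM with GR24 and 78.5 ± 1.59 RPKM with acetone at 7 d (SD, n = 2 each; -0.90 ± 0.117, edgeR adjusted p = 6.79e-08). At 14 d it averaged 84.4 ± 1.25 RPKM with GR24 and 116 ± 7.36 RPKM with acetone (SD, n = 3 each; -0.48 ± 0.062, edgeR adjusted p = 5.31e-05). Over roots it averaged 138 ± 25.8 RPKM, against 73.7 ± 5.21 RPKM without roots (SD, n = 3 and 2; 0.96 ± 0.144, edgeR adjusted p = 0.00314). Model JGI.28301 had log2 fold changes of -1.25 ± 0.255 at 7 d (edgeR adjusted p = 0.000425), -0.93 ± 0.196 at 14 d (adjusted p = 0.0115) and 1.68 ± 0.294 with roots (adjusted p = 0.0033). This 171-base model averaged 28.9 ± 8.11 RPKM with GR24 and 67.8 ± 0.0767 RPKM with acetone at 7 d (SD, n = 2 each). At 14 d it averaged 51.9 ± 12 and 96.4 ± 24.6 RPKM (SD, n = 3 each). Over roots it averaged 66.2 ± 18.4 RPKM, against 21.5 ± 0.379 RPKM without roots (SD, n = 3 and 2).

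Other members of the family differed in either direction. Model JGI.350404, of the aldehyde reductase group KOG1577, averaged 79.4 ± 7.67 RPKM with GR24 and 57.4 ± 2.65 RPKM with acetone at 2 d (SD, n = 2 and 3; 0.52 ± 0.111, edgeR adjusted p = 0.0229) and was higher at 7 d as well (0.71 ± 0.120, adjusted p = 1.99e-05). Model JGI.19893 was higher with GR24 at 7 d (1.51 ± 0.312, edgeR adjusted p = 0.000526) and at 14 d (1.15 ± 0.193, adjusted p = 0.000968). Its levels were low, at 10.6 ± 2.05 RPKM with GR24 and 3.8 ± 1 RPKM with acetone at 7 d (SD, n = 2 each). At 14 d they were 17.7 ± 0.635 and 7.55 ± 2.72 RPKM (SD, n = 3 each). Models JGI.152225 and JGI.11766 were lower at 7 d, with log2 fold changes of -0.56 ± 0.099 and -0.54 ± 0.097. Over roots, JGI.204628 averaged 1129 ± 21.0 RPKM, against 406 ± 24.1 RPKM without roots (SD, n = 3 and 2; 1.54 ± 0.075, edgeR adjusted p = 1.72e-06). Model JGI.137896, whose best hit is an aryl alcohol dehydrogenase, averaged 903 ± 25.9 RPKM over roots, against 332 ± 21.4 RPKM without roots (1.50 ± 0.076, edgeR adjusted p = 1.72e-06). Models JGI.83101 and JGI.11768 were higher over roots, with log2 fold changes of 1.26 ± 0.233 and 0.52 ± 0.082.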

How the data were processed

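Per the file headers, the authors deposited for each library a count of total gene reads per JGI Gloin1 gene model, a count of unique gene reads, RPKM values and model lengths in bases, in 5 tables. The RPKM values deposited by the authors rest on the total gene reads, since the total they imply equalled the sum of total gene reads (ratio 1.0000). Reads matching several models made up 0.122% to 1.09% of each library. Per the labels, messenger RNA was isolated with poly-T beads. The alignment tool is not given in the sources used here. Of 30 samples in 10 groups, 25 had a column, and 5 (replicate 3 of acetone at 7 d, replicate 1 of acetone at 1 h and of GR24 at 7 d, replicate 2 of GR24 at 2 d, and replicate 3 without roots) were not analysed here.

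The test was edgeR 4.0.16 on total gene reads, in R 4.3.3 (filterByExpr, TMM, robust 2-sided quasi-likelihood test, Benjamini-Hochberg adjustment over all tested models, threshold 0.05). Each treatment comparison was fitted on its own libraries, and the time contrasts and effect differences on all time-course libraries. Levels are the deposited RPKM. Likeness used log2 CPM with a prior count of 2. Alternatives were unique reads, RLE scaling, DESeq2 1.42.0, no filter, a replicate block, a fit of all time-course groups and leaving out each library. The pipeline was tested on simulated data. None of 20 pairs of libraries within groups was a duplicate (chi-square per degree of freedom 2.781 to 9.825). The models and lists were chosen with earlier results of these data known. Family models were those with the domain found by keyword, of which at most 6 called per comparison, by lowest p, are named; companion lists used keywords in the descriptions, with at most 3 named. The models were chosen on the 14 d libraries, so no p-value is given for them there. The reference table of 30147 genes, from another assembly, paired with 0 models.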

Additional observations from a re-analysis of the deposited data

Results flagged for a closer look

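For 2 of the 3 models the GR24 effect differed between times in a test of the difference itself. Model JGI.22273 was flagged because its GR24 effect at 7 d minus that at 1 h was -1.17 ± 0.170 on the log2 scale (edgeR's quasi-likelihood test, adjusted p = 2.98e-05), and because its effect at 2 d minus that at 1 h was -0.56 ± 0.164 (adjusted p = 0.0323). The call for 2 d minus 1 h ended when certain single libraries were left out, with values between -0.64 and -0.46. Model JGI.33452 was flagged because its effect at 7 d minus that at 1 h was -0.96 ± 0.182 (edgeR adjusted p = 0.00072).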

How the results depend on the processing

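No value for the 3 models that passed its test changed sign under the alternatives run. Without 1 library at a time, values ran from -0.58 to -0.44 for JGI.22273 and from -0.59 to -0.48 for JGI.33452 at 2 d, from -0.79 to -0.66 for JGI.62569 at 7 d, from 0.20 to 0.49 for JGI.22273 at 14 d against 7 d in acetone, and, for JGI.33452 in GR24, from 0.25 to 0.55 at 7 d against 2 d and from 0.54 to 0.84 at 14 d against 7 d. For the effect at 2 d minus 1 h they ran from -0.66 to -0.46 for JGI.22273 and from -0.75 to -0.29 for JGI.33452, for 7 d minus 1 h from -1.07 to -0.47 for JGI.62569, and for the mean effect from -0.47 to -0.27 for JGI.62569. With DESeq2, JGI.62569 passed for 7 d minus 1 h (-0.76, adjusted p = 0.0494), and with no filter JGI.22273 passed in edgeR for 7 d minus 2 d (-0.61, adjusted p = 0.00539). Replicate numbers did not pair the libraries (correlations of deviations between equal numbers from -0.1309 to 0.0214). With a replicate block the 2 d count was 504, the count for 7 d minus 2 d was 40, and JGI.33452 in GR24 at 7 d against 2 d no longer passed in edgeR (0.39, adjusted p = 0.0727); at 7 d too few numbers were shared for a block.

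Counts of all models called moved more. At 2 d the main 316 became 831 with no filter and 748 with all time-course groups in 1 fit. At 7 d 917 became 521 with DESeq2, at 14 d 454 became 860 with no filter, and for 7 d minus 2 d 113 became 182 with DESeq2 and 593 with no filter. Without 1 library the counts ran from 689 to 1418 at 1 h, from 46 to 457 at 2 d, from 574 to 1315 at 7 d, from 247 to 510 at 14 d and from 793 to 2916 for roots, from 1943 to 3998 for acetone and from 850 to 1176 for GR24 at 7 d against 2 d, and from 553 to 1404, 585 to 930 and 0 to 364 for the effects at 2 d minus 1 h, 7 d minus 1 h and 7 d minus 2 d. The cause was not tested. The precision of JGI.62569 is limited by its read counts, and groups of 2 libraries limit every comparison except that at 14 d with GR24.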

Other observations

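Companion enzymes were listed by keyword, and their median log2 fold changes in the 5 comparisons ran from -0.06 to 0.11 for NADPH supply, from -0.10 to 0.14 for aldehyde and alcohol dehydrogenases, from -0.08 to 0.13 for short-chain dehydrogenases and from -0.19 to -0.04 for glyoxalases. Counts of these lists are read against the share of all tested models called in edgeR, which was 7.05% higher and 3.39% lower at 1 h, 1.02% higher and 1.13% lower at 2 d, and 4.31% higher and 2.12% lower at 7 d. With the 3 models left out it was 1.29% higher and 1.93% lower at 14 d, and 7.45% higher and 7.76% lower over roots. Of 4 tested NADPH supply models, JGI.14411, a glucose-6-phosphate dehydrogenase, was lower with GR24 at 1 h (192 ± 1.97 RPKM with GR24 and 250 ± 17.1 RPKM with acetone, SD, n = 3 and 2; log2 fold change -0.33 ± 0.067, edgeR adjusted p = 0.00083), and JGI.40309, a 6-phosphogluconate dehydrogenase, was higher over roots (0.47 ± 0.076, edgeR adjusted p = 0.00204); 0 passed in edgeR at 2 d, 7 d and 14 d, also at an unadjusted p under 0.05. Of 23 tested aldehyde and alcohol dehydrogenases, 2 were higher and 1 lower at 1 h, 0 passed at 2 d in edgeR (2 higher and 2 lower at an unadjusted p under 0.05), 1 was higher at 7 d, and 0 passed at 14 d in edgeR (2 lower at an unadjusted p under 0.05). Over roots 5 of 22 were higher and 1 lower, among them JGI.349895, an aldehyde dehydrogenase, at 0.51 ± 0.088 (edgeR adjusted p = 0.00307). The keywords also caught models described by another function, so these counts are not of dehydrogenases alone. Those called higher include JGI.66221, an alpha-aminoadipate reductase, at 1 h. Over roots they include JGI.79513, whose group is named for the transcriptional effector CCR4.

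Of the short-chain dehydrogenases, another family that reduces carbonyls, 2 of 23 were higher and 1 lower with GR24 at 1 h, 1 of 25 was higher at 2 d, 2 of 22 were lower at 7 d, and 1 of 23 was higher and 1 lower at 14 d in edgeR's test. Over roots, 3 of 25 were higher and 2 lower. Among them JGI.2113 (best hit a retinol dehydrogenase) rose at 1 h by 1.03 ± 0.105 (edgeR adjusted p = 1.88e-08), with 107 ± 3.85 RPKM with GR24 and 53.9 ± 0.894 RPKM with acetone (SD, n = 3 and 2). Model JGI.128493 was higher with GR24 at 2 d (0.56 ± 0.124, edgeR adjusted p = 0.025) and at 14 d (0.65 ± 0.107, adjusted p = 0.00255). Model JGI.2115 (best hit a retinol dehydrogenase) was lower over roots, at 4.37 ± 1.61 RPKM, against 22.4 ± 1.85 RPKM without roots (SD, n = 3 and 2; -2.31 ± 0.272, edgeR adjusted p = 0.000322), with the direction taken from the sample titles. Model JGI.344599, the 1 old yellow enzyme, was higher with GR24 at 7 d (0.42 ± 0.102, edgeR adjusted p = 0.00476). Glyoxalases detoxify methylglyoxal, and 3 models listed by that keyword set were tested. Of these, JGI.338873 was lower with GR24 at 1 h (-0.28 ± 0.074, edgeR adjusted p = 0.0108). Its best hit is labelled glyoxalase/bleomycin resistance protein/dioxygenase, so its function is not settled by the label. In the other 4 comparisons 0 of the 3 passed in edgeR (1 higher and 1 lower at 2 d and 1 lower at 14 d at an unadjusted p under 0.05).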
